A study of Mus musculus with 6 samples.

Results

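The genes examined were 6 ligands of the epidermal growth factor (EGF) family (Areg, Ereg, Btc, Tgfa, Hbegf and Nrg1), 3 ErbB receptors (Egfr, Erbb2 and Erbb3) and Errfi1, an inhibitor inside the cell that binds these receptors. The list was drawn up by name, and each gene's probes were found through the RefSeq accession printed for the spot. Probes were found for 9 of the 10 genes, out of 16514 genes named in this way on the array, and Nrg1 was not analysed here. These 9 genes had 18 probes, of which 15 were detected, that is, well above background on each array of some group.

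The cells were labelled primary Sertoli cells of C57BL/6J mice, the somatic cells that nourish germ cells in the seminiferous tubule. All groups were kept at 34 °C in F12/DMEM to which insulin (10 µg/ml), transferrin (5 µg/ml) and EGF (5 ng/ml) had been added, so that every culture, controls included, already received a ligand of Egfr. From day 5 the cultures were given vehicle, basic fibroblast growth factor (bFGF, stated as 20 ng without a volume) or 10 µM PD0325901, a small-molecule inhibitor of MEK1 and MEK2, for 24 h. Each of the 3 groups held 2 samples, each on its own 1-colour array; age, the number of animals and pooling were not given in the sources used here, so the spread that p-values rest on may be technical.

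EGF family ligands are made as membrane-anchored precursors and are released by proteases of the ADAM family. Amphiregulin (Areg) and transforming growth factor alpha (Tgfa) bind Egfr, epiregulin (Ereg), betacellulin (Btc) and heparin-binding EGF-like growth factor (Hbegf) bind Egfr and Erbb4, and Erbb2, which has no known ligand, pairs with the other receptors. A bound receptor passes its signal through Ras, Raf, MEK and ERK, and Errfi1 is induced by this pathway and blocks the receptor kinase. In the ovary, amphiregulin and epiregulin relay the luteinizing hormone signal from granulosa cells, the female counterpart of Sertoli cells.

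Levels are given as the log2 processed signal minus the array's 75th percentile, so 0 is the brightness of the spot at that percentile; it lay between 1464 and 1613 on the 6 arrays. Brightness differs between probes for reasons other than transcript number, so levels were compared only within a probe. Well above background were 64.9% to 66.6% of probes on the vehicle and PD0325901 arrays and 75.6% and 75.9% on the bFGF arrays. The slide and its scan changed with the treatment, 1 slide for each group, and in all comparisons these cannot be told apart. All 12 Sertoli cell markers looked for were well above background on at least 1 vehicle array, but markers of other cells were detected too, so no value can be assigned to Sertoli cells alone, and fewer cells of a type and less RNA per cell cannot be told apart. The inhibitor's known targets moved on the arrays labelled PD0325901: Dusp6, an ERK phosphatase that ERK induces, fell by 6.07 ± 0.07 (SE, n = 2 arrays per group), and all 6 such genes looked at (Dusp6, Spry4, Etv5, Etv4, Egr1 and Spred1) fell (limma adjusted p between 3.49e-05 and 3.85e-04).

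The comparison of PD0325901 with vehicle asked how these genes depend on MEK while EGF is present. Under the inhibitor Areg and Ereg were no longer well above background, Errfi1 fell 6.08-fold, and Btc, Egfr and Tgfa fell by smaller amounts. Hbegf and Erbb2 rose by a small amount, and Erbb3 rose from below background. All 9 measured members passed the test (6 lower, 3 higher; adjusted p under 0.05 over 14236 genes). Over all genes tested 53.4% passed in this comparison, 24.1% higher and 29.3% lower, so passing by itself says little here, and the sizes carry the description. The median difference was -0.68 for the 9 members and -0.05 for all genes tested. The groups did not overlap for any of the 9, as for 79.7% of all genes tested. Areg, Ereg and Erbb3 entered the test only through the groups in which they were well above background. The filter thus favoured a difference for them, and these counts support nothing by themselves.

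Areg lay at -4.17 and -3.84 on the vehicle arrays, at -3.21 and -3.29 on the bFGF arrays and at -8.13 and -8.04 on the PD0325901 arrays. The 3 groups did not overlap, and neither PD0325901 array was well above background. Set against a bound, its signal was at least 5.28-fold lower under PD0325901 than with vehicle (limma adjusted p = 1.14e-04). The bound was, on each dim array, the lowest signal that was well above background or the probe's own signal if higher. It is approximate, because a probe could be brighter than that lowest signal and still not be well above background. Adam19 lay at -6.17 on PD0325901 replicate 2, where the lowest such signal was -6.26. The same limit holds for every bound given below. The adjusted p beside a bound, here and below, tests the measured difference and not the bound. The measured means of Areg were -4.01 and -8.08. Ereg gave nearly the same picture, at -3.93 and -3.82 with vehicle, -3.08 and -2.96 with bFGF, and -8.21 and -7.73 under the inhibitor. It was at least 5.77-fold lower under PD0325901 (limma adjusted p = 2.32e-04), with measured means of -3.88 and -7.97. With normexp background correction, whose offset raises dim signals, the differences were smaller, at -1.0 for Areg and -1.12 for Ereg, so these bounds hold for the processed signal only.

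**Figure D1:**
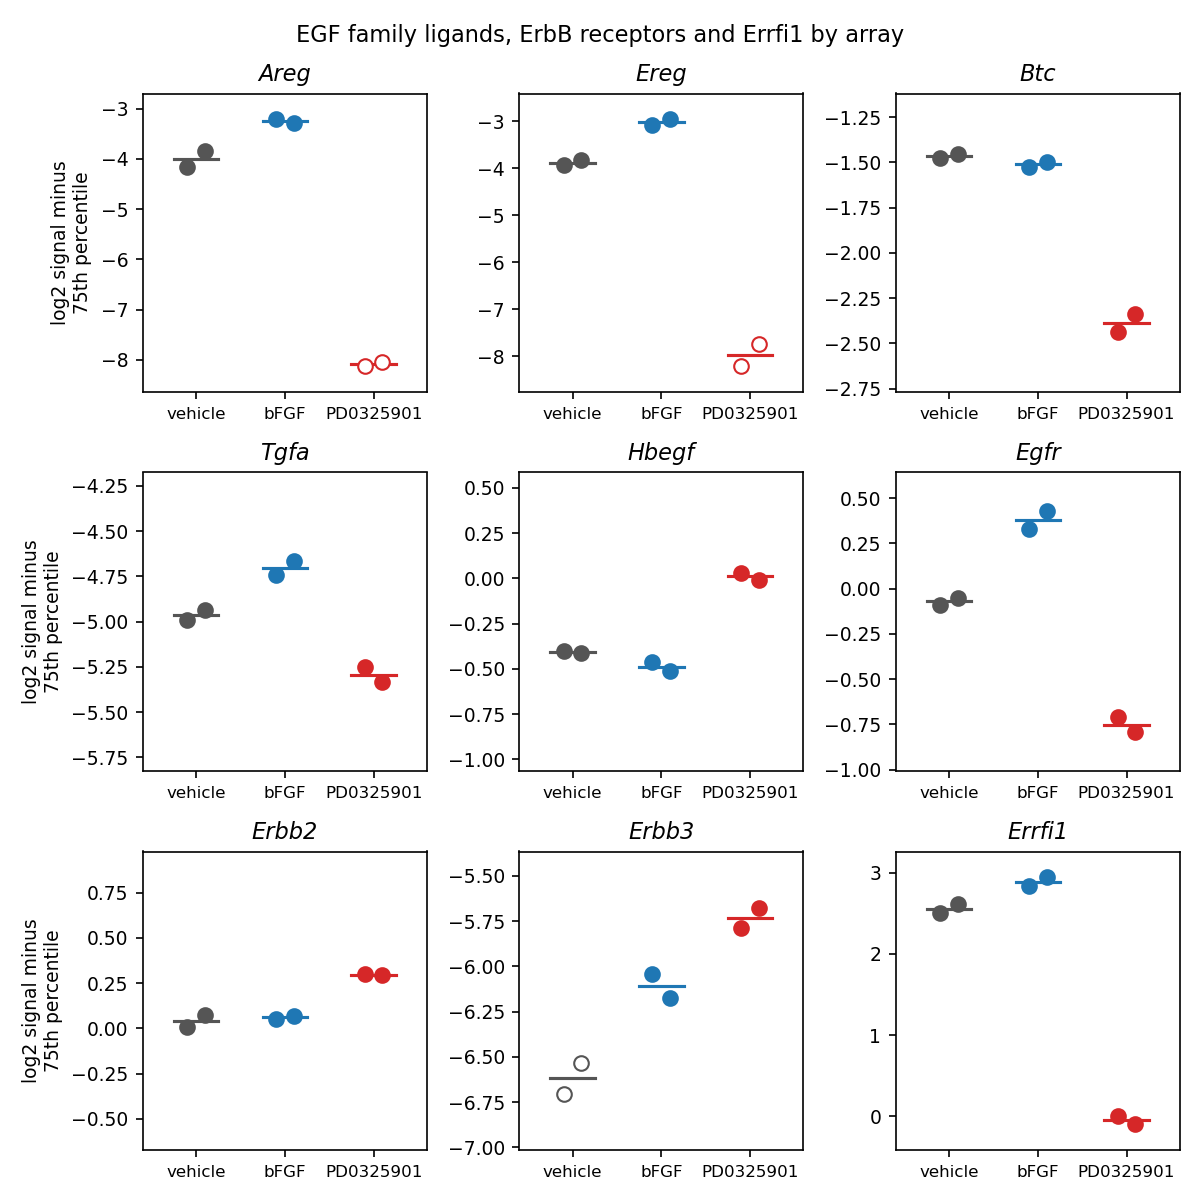
Log2 signal minus the array's 75th percentile for the probe that stands for each gene, 1 point per array and a line at the group mean; open points were not well above background, and each panel has its own vertical axis. Areg and Ereg lie near -8 under PD0325901 against about -4 with vehicle, and Hbegf and Erbb2 are the only panels besides Erbb3 in which the PD0325901 points are the highest.

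Errfi1, the feedback inhibitor, was well above background on all arrays. It lay at 2.50 and 2.62 with vehicle, at 2.83 and 2.94 with bFGF and at 0.01 and -0.10 with PD0325901. The inhibitor arrays stood far below the other 4, and on the log2 scale the fall of Errfi1 was -2.60 ± 0.07 (SE, n = 2, 95% confidence interval -2.80 to -2.41, limma adjusted p = 1.06e-04). By their measured differences only 131 genes fell further, among them genes not well above background under PD0325901, such as Areg and Ereg.

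Promoter sequence, the 250 bases before an annotated start, was read from RefSeq (GRCm38.p6) for 6 members: Areg, Btc, Egfr, Erbb2, Errfi1 (2 starts) and Tgfa. Windows of Ereg, Hbegf and Erbb3 were not searched. Letters of 4 motifs were searched on both strands: TGANTCA (AP-1), TGACGTCA (cAMP response element, CRE), CCGGAAG (ETS) and GCGTGGGNG (Egr). No match of 1 motif overlapped another in these windows. The windows of Areg and of the downstream start of Errfi1 are shown because each held the full CRE letters, in capitals, close to the start, as did 1.55% of the 32851 windows in the table; that of Egfr held the ETS letters, in capitals, as did 6.91%.
Areg, chr5:91139349-91139598, plus strand: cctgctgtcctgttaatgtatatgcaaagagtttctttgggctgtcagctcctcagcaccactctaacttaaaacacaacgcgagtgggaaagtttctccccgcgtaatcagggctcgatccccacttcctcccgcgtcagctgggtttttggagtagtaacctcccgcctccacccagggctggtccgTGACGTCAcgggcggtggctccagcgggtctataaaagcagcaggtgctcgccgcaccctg
Errfi1, chr4:150854820-150855069, plus strand: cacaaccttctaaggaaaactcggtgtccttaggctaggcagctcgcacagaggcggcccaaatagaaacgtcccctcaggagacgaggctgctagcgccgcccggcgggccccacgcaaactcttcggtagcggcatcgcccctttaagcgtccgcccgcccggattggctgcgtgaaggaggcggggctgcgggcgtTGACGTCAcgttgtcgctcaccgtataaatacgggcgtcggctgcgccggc
Egfr, chr11:16751953-16752202, plus strand: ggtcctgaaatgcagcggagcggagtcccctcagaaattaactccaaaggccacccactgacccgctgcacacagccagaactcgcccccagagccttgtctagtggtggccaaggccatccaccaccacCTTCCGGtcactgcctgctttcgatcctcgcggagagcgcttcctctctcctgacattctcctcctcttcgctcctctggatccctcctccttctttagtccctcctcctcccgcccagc
The CRE letters began 61 bases before the start of Areg and 51 bases before that of Errfi1. The ETS letters of Egfr began 120 bases before its start. The AP-1 and Egr letters, which 6.75% and 1.65% of all windows held, were in none of the 7 windows of members, and the upstream Errfi1 window and those of Btc, Erbb2 and Tgfa held none of the 4 motifs. So of the members that fell, some held the CRE letters in this window and some, such as Btc, did not; a match is a match of letters only.

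Among the other ligands, Btc lay at -1.48 and -1.45 with vehicle, at -1.52 and -1.50 with bFGF and at -2.43 and -2.34 with PD0325901. It fell by 0.92 ± 0.05 under the inhibitor (limma adjusted p = 4.06e-04), a 1.89-fold fall. Its other probe was not detected. Tgfa lay at -4.99 and -4.94 with vehicle, -4.74 and -4.67 with bFGF and -5.25 and -5.34 with PD0325901. It fell by 0.33 ± 0.05 (limma adjusted p = 0.00850), and its other probe differed by -0.32. Quantile normalization left that small difference at -0.09 (adjusted p = 0.161) and normexp background correction at -0.10 (adjusted p = 0.128), and it did not pass there or without PD0325901 replicate 2 (-0.29, adjusted p = 0.0518). Hbegf went the other way: it lay at -0.40 and -0.41 with vehicle, -0.46 and -0.51 with bFGF, and 0.03 and -0.01 with PD0325901. Both inhibitor arrays were above the other 4, and Hbegf rose by 0.42 ± 0.04 (1.34-fold, limma adjusted p = 0.00192).

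The receptors changed less than the ligands that fell furthest. Egfr, the receptor for the EGF in the medium, lay at -0.09 and -0.05 with vehicle, 0.33 and 0.43 with bFGF and -0.71 and -0.79 with PD0325901. The groups were apart, and Egfr fell by 0.68 ± 0.06 under the inhibitor (1.60-fold, limma adjusted p = 0.00120). All 4 of its probes were lower under PD0325901, with differences of -0.68 to -0.13 on the log2 scale. Probes under 2 RefSeq transcript accessions were on the array, 2 for each, and the brightest stood for the gene. Of the others, 1 passed over all probes tested, at -0.45 (limma adjusted p = 0.0271), and the remaining 2 did not.

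Erbb2, the receptor that acts as a shared partner, lay at 0.01 and 0.07 with vehicle, 0.05 and 0.07 with bFGF and 0.30 and 0.29 with PD0325901. It rose by 0.26 ± 0.04 (1.19-fold, limma adjusted p = 0.00857); its other probe was 0.32 higher. The rise of Erbb2 did not pass without PD0325901 replicate 1 (0.25, adjusted p = 0.0568) or replicate 2 (0.26, adjusted p = 0.0544). Erbb3, a receptor with little kinase activity of its own, lay at -6.70 and -6.53 with vehicle, neither well above background, at -6.04 and -6.18 with bFGF and at -5.79 and -5.68 with PD0325901. It was at least 1.41-fold higher under PD0325901 than with vehicle (limma adjusted p = 0.00194, measured means -5.73 and -6.62). The measured difference of 0.88 became 0.23 with normexp and 1.14 with quantile normalization. With the mean of its 2 detected probes it did not pass (0.63 on the log2 scale, adjusted p = 0.281). Its other 2 probes were not detected, and no probe of Erbb3 was well above background on a vehicle array.

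**Figure D2:**
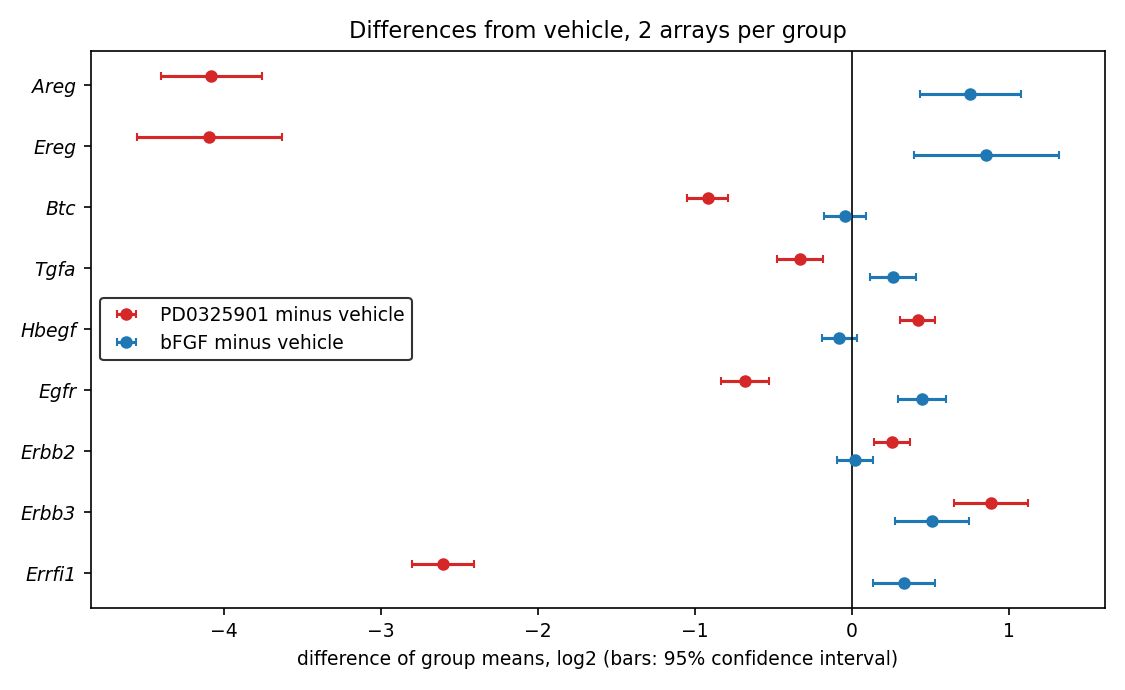
Difference of group means on the log2 scale for PD0325901 minus vehicle and bFGF minus vehicle, with 95% confidence intervals from limma, 2 arrays per group. Areg, Ereg and Errfi1 lie furthest to the left under PD0325901 (-4.08, -4.09 and -2.60), and every difference between bFGF and vehicle is under 1.

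Among all 14236 genes tested, 2122 rose further than Hbegf and 3300 further than Erbb2 by their measured differences. The falls of Btc, Egfr and Tgfa were exceeded by 1461, 2226 and 3982 genes. Areg, Ereg and Erbb3 were not ranked, because only a bound on their change is known.

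**Figure D3:**
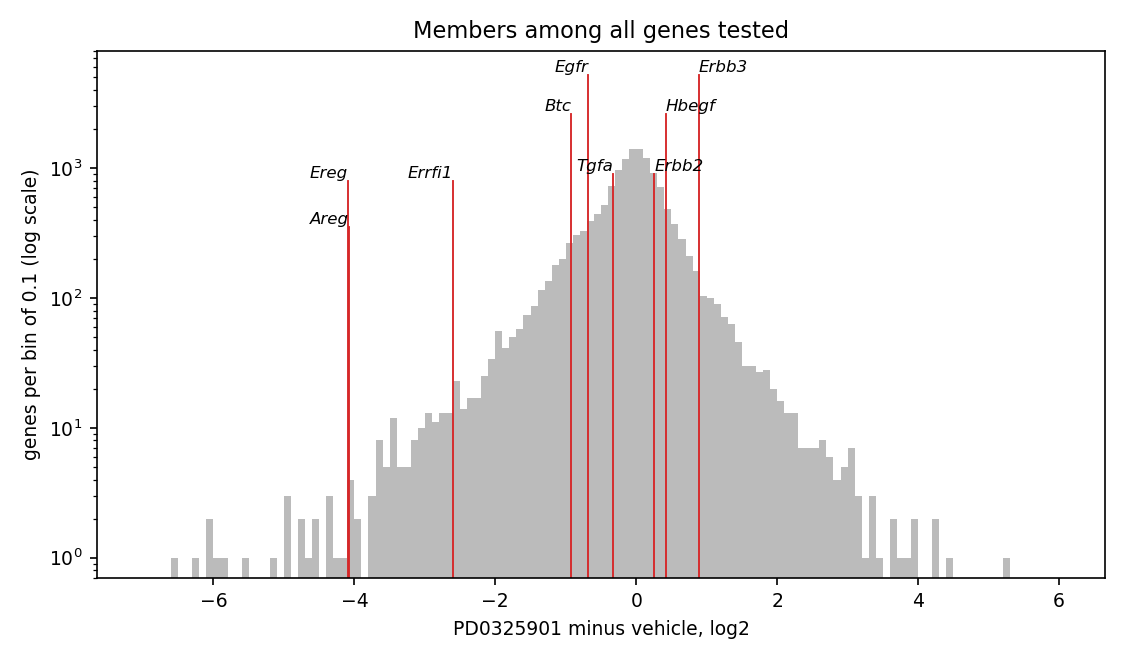
Histogram of PD0325901 minus vehicle on the log2 scale for the 14236 genes tested, with a logarithmic vertical axis of genes per bin; red lines mark the 9 measured members. Areg and Ereg, drawn at measured values below background, and Errfi1 lie lowest, and the other 6 lie within 1 of 0.

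Epgn, Ereg, Areg and Btc are neighbours on mouse chromosome 5 in that RefSeq annotation, in this order and with no other protein-coding gene between them. Epgn (epigen, a further Egfr ligand, which is not among the members) was well above background on 1 vehicle array, both bFGF arrays and neither PD0325901 array, and was at least 1.32-fold lower under the inhibitor (limma adjusted p = 0.00705). Epgn was detected only through the bFGF arrays, so its difference lies between groups at or near background. Ereg, Areg and Btc, which adjoin each other, fell as given above. The 5 protein-coding genes on either side were looked at after these values were seen, and 5 of the 10 were tested. None of these 5 passed as lower under PD0325901. Parm1, next to Btc, rose by 0.21 ± 0.05 (limma adjusted p = 0.0204), Cxcl2, a chemokine, passed but was not well above background in either group, and Cxcl1, Rchy1 and Cdkl2 did not pass (-0.34, 0.08 and 0.42).

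**Figure D4:**
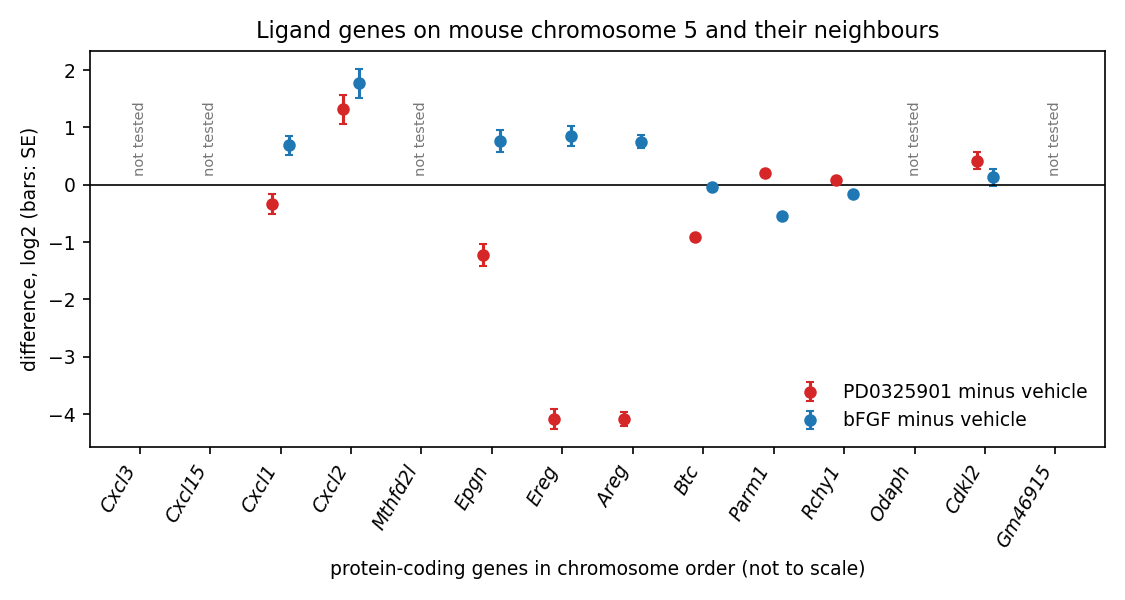
Difference from vehicle on the log2 scale with its SE for PD0325901 and bFGF, for the 14 protein-coding genes from Cxcl3 to Gm46915 in chromosome order, of which 9 were tested. The 4 PD0325901 points of Epgn, Ereg, Areg and Btc lie at -1.23, -4.09, -4.08 and -0.92 (Epgn, Ereg and Areg not well above background there). No tested neighbour passed as lower under PD0325901, and Cxcl1 lies at -0.34 (limma adjusted p = 0.166).

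The comparison of bFGF with vehicle asked whether bFGF, a ligand of other receptor tyrosine kinases, changes these genes when EGF and insulin are already present. Areg, Ereg, Egfr, Tgfa and Errfi1 rose by less than 1 on the log2 scale, Erbb3 rose from below background, and Hbegf, Btc and Erbb2 did not pass. In numbers, 6 of the 9 measured members passed, all higher, where 19.9% of all genes tested passed (12.6% higher and 7.28% lower). The median difference was 0.33 for the members and 0.03 for all genes tested. The groups did not overlap for 8 of the 9, against 67.6% of all genes tested. Erbb3 entered the test only through the bFGF and PD0325901 arrays, so these counts support nothing by themselves. Of the inhibitor's 6 known targets looked at above, 0 rose with bFGF and 5 did not pass. The remaining target, Etv4, fell by 0.50 ± 0.05 (limma adjusted p = 0.0107). These calls rest on very few arrays. Without bFGF replicate 1 limma called 0 of the 9 members and 545 genes, and without bFGF replicate 2 it called 0 of the 9 and 0 genes; 6 members had an unadjusted p under 0.05 in each case (and 3722 genes in the latter). Without vehicle replicate 1 or 2, or PD0325901 replicate 1 or 2, it called 2, 3, 2 and 2 members.

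Areg was 0.75 ± 0.12 higher with bFGF than with vehicle (1.69-fold, 95% confidence interval 0.43 to 1.08, limma adjusted p = 0.0241), and Ereg 0.85 ± 0.17 higher (1.81-fold, 0.39 to 1.32, limma adjusted p = 0.0378). For each of these ligands both bFGF arrays were above both vehicle arrays. The call for Areg held under 10 of 15 alternatives and that for Ereg under 11 of 15. Egfr was 0.45 ± 0.06 higher (1.37-fold, limma adjusted p = 0.0165), and its 4 probes were 0.17 to 0.67 higher, of which only the brightest passed over all probes tested. Errfi1 was 0.33 ± 0.07 higher (1.26-fold, limma adjusted p = 0.0462), a call that held under only 5 of 16 alternatives. Tgfa was 0.26 ± 0.05 higher (1.20-fold, limma adjusted p = 0.0407) and its other probe 0.44 higher, but the first passed under only 4 of 16 alternatives. It was 0.01 higher after quantile normalization (adjusted p = 0.882), 0.12 with normexp (0.125) and 0.13 with scaling to the array's median (0.118).

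Erbb3 was at least 1.08-fold higher with bFGF, with measured means of -6.11 and -6.62 (limma adjusted p of the measured difference = 0.0281). With quantile normalization the difference was 0.05 (adjusted p = 0.695). Its call held under 5 of 15 alternatives. The bFGF arrays also reached dimmer spots: the detection floor lay at -7.12 and -6.98 there, at -6.27 and -6.19 for vehicle and at -6.55 and -6.26 for PD0325901. Whether this took part in the detection of Erbb3, Epgn or other dim genes with bFGF was not tested. Hbegf differed by -0.08 (95% confidence interval -0.19 to 0.03), Btc by -0.04 (-0.18 to 0.09) and Erbb2 by 0.02 (-0.09 to 0.14). Scaling to the array's median put Hbegf at -0.21 (limma adjusted p = 0.0251).

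Set directly against PD0325901, in a comparison that shares its arrays with the other comparisons, bFGF gave higher Areg, at least 8.91-fold, and Ereg, at least 10.4-fold (limma adjusted p = 8.76e-05 and 1.43e-04). With normexp these differences were 1.53 and 1.66 on the log2 scale. Errfi1 was 7.64-fold, Egfr 2.19-fold, Btc 1.84-fold and Tgfa 1.50-fold higher with bFGF. Hbegf, Erbb3 and Erbb2 were lower with bFGF than with PD0325901, by 1.41-fold, 1.30-fold and 1.18-fold. All 9 members passed in this comparison, as did 62% of all genes tested (36.6% higher and 25.4% lower), and the groups did not overlap for any of the 9, against 86.6% of all genes tested. Areg and Ereg entered the test only through the vehicle and bFGF arrays, so these counts too support nothing by themselves. The Erbb3 difference was -0.38 ± 0.09 at the probe that stands for it and 0.55 ± 0.82 at its other detected probe. The latter did not pass (limma adjusted p over all probes 0.598) and was not well above background on either PD0325901 array. It is too noisy to check the direction. At the probe that stands for Erbb3 the difference was -1.09 with quantile normalization. It did not pass with normexp (-0.07, adjusted p = 0.263), or without bFGF replicate 2 (adjusted p = 0.0930), PD0325901 replicate 1 (0.0522) or PD0325901 replicate 2 (0.0971), and Erbb2 did not pass without PD0325901 replicate 1 (0.0594) or 2 (0.0563) or with the mean of its probes (0.0615). Tgfa did not pass after quantile normalization (0.11, adjusted p = 0.117).

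The order of the 3 groups thus differed between members. In Areg, Ereg, Egfr, Tgfa and Errfi1 the group means ran from PD0325901 through vehicle to bFGF. As given above, the step from vehicle to bFGF passed under only some of the alternatives, fewest for Tgfa and Errfi1. In Btc vehicle and bFGF did not differ by the test and PD0325901 lay below them, and in Hbegf and Erbb2 PD0325901 lay above them. Erbb3 was lowest with vehicle, and its other detected probe was too noisy to check the order of bFGF and PD0325901. By Euclidean distance over the 6 arrays, each gene centred on its mean, Areg and Ereg were each other's nearest gene among all 14236 (distance 0.366, Pearson r 0.998 over 6 arrays of 3 treatments). That distance includes the PD0325901 arrays, on which neither probe was well above background, so its exact size and rank rest partly on values below background, as do those for Erbb3 with vehicle. Next came Tulp2 for Areg (0.432) and Espn, an actin-bundling protein gene of Sertoli cell junctions, for Ereg (0.538). The nearest genes to Errfi1 were the cytokine gene Il6 (0.187) and Maff, a basic leucine zipper transcription factor gene (0.212). Klhl36 and Tigd3 were nearest to Egfr (0.077 and 0.105), Hmgxb4 and Rad54l to Btc (0.075 and 0.078), Mex3d and Wrap73 to Hbegf (0.034 and 0.038), BC049762 and Rasip1 to Tgfa (0.022 and 0.075), Erp29 and Pccb to Erbb2 (0.017 and 0.023), and Ddx58 and Pbld2 to Erbb3 (0.136 and 0.139). With 3 treatments many genes share an order, so such nearness is common.

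Of the rest of the pathway, 55 of 62 listed genes were tested. Under PD0325901 18 rose, 15 fell and 22 did not pass, which is 60% called against 53.4% of all genes, with a median difference of 0.02. With bFGF 3 rose, 5 fell and 47 did not pass, 14.5% called against 19.9%.

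Of the other ligands and the remaining receptor, 3 of 6 were tested. Egf itself, the ligand supplied in the medium, had a transcript that fell by 1.05 ± 0.09 under PD0325901 (limma adjusted p = 0.00135), and Epgn fell as given above. Nrg4, a ligand of Erbb4, did not pass (1.08, adjusted p = 0.305).

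Of 12 genes of ligand shedding, 10 were tested, and under PD0325901 3 rose and 4 fell. Adam19 fell by 2.89 ± 0.08 (limma adjusted p = 1.14e-04) and was well above background on only 1 PD0325901 array; of its other 2 detected probes, 1 was not well above background on either PD0325901 array and 1 did not pass (-0.89, adjusted p over all probes 0.101). Adam9 fell by 1.75 ± 0.05 and Rhbdf2, an inactive rhomboid that carries Adam17 to the cell surface, rose by 0.97 ± 0.07. Adam17, the main sheddase of Areg, Ereg, Hbegf and Tgfa, did not pass (-0.14, adjusted p = 0.149). The tetraspanin gene Cd9 rose by 0.54 ± 0.12. With bFGF 1 of the 10 passed, Rhbdf2, which fell by 0.35 ± 0.07 (adjusted p = 0.0420).

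Of 18 tested adaptors and enzymes that act on the activated receptor, 6 rose, 4 fell and 8 did not pass under PD0325901. Vav3 was at least 5.32-fold lower and Eps8, a substrate of Egfr that acts on actin, fell by 2.41 ± 0.07 (limma adjusted p = 2.25e-04 and 1.14e-04). Gab1, a docking protein, rose by 1.38 ± 0.06 and Pik3r1, a regulatory subunit of PI3-kinase, by 0.99 ± 0.05. Grb2 and Sos1, which link the receptor to Ras, rose by 0.29 ± 0.05 and 0.45 ± 0.06. With bFGF, 2 rose, 1 fell and 15 did not pass: Grb7, an adaptor that binds Erbb2, rose by 0.53 ± 0.09, Vav2 by 0.25 ± 0.05, and Pik3r1 fell by 0.49 ± 0.05. Of the 4 detected probes of Pik3r1, 1 was 0.10 higher with bFGF.

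Of 24 tested genes that act in the restraint, uptake or turnover of the receptors, in either direction, 9 rose, 5 fell and 10 did not pass under PD0325901. Ubash3b, whose protein binds Cbl, fell by 4.93 ± 0.06 (30.5-fold, limma adjusted p = 4.23e-05), further than any other gene of the 4 pathway lists. Socs5, which promotes breakdown of Egfr, fell by 1.89 ± 0.06, whereas Rnf41, a ubiquitin ligase for Erbb3, rose by 0.63 ± 0.10 and the phosphatase gene Ptprj by 0.57 ± 0.05. The other detected probe of Rnf41 was 0.20 higher. Cbl, the main ubiquitin ligase of Egfr, and Lrig1 did not pass (0.01 and 0.13). With bFGF, 1 rose, 3 fell and 20 did not pass: Ptpn2 rose by 0.27 ± 0.05, and Ptprj and Sh3kbp1 fell by 0.41 ± 0.05 and 0.37 ± 0.07.

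Markers of other cell types moved with PD0325901 beside these genes. The summed level of 4 endothelial markers, in units of the 75th percentile signal, was 1.06 and 1.12 with vehicle and 0.439 to 0.496 with PD0325901, and all 4 fell. That of 7 macrophage markers was 12.7 to 13.8 and 8.74 to 8.94, with 4 lower and 3 that did not pass. Lyz2 was the brightest of these (log2 level 3.26 and 3.08 with vehicle). That of 6 peritubular myoid markers was 61.3 to 65.7 and 90.2 to 90.8, with 4 higher, and that of 4 fibroblast markers 25.1 to 25.2 and 33.9 to 34.7, with 2 higher. The probes of the myoid marker Acta2 differed. The probe that entered the sum rose by 0.79 and another by 1.08, but a further probe differed by only 0.0055 (limma adjusted p over all probes 0.932). The sum of the 12 Sertoli cell markers was 429 to 433 with vehicle, 411 to 418 with bFGF and 400 to 426 with PD0325901, with 4 higher and 4 lower under the inhibitor. Every such sum is weighted to its brightest probes, here Clu (log2 level 7.86 and 7.91 with vehicle). It therefore does not show changes of dimmer markers, such as Fshr (-1.22) and Amh (1.01) under PD0325901. Leydig cell markers (4 tested, 2 lower) summed to 24.6 to 25.2 and 20.7 to 20.9, germ cell markers (6 tested, 1 higher and 2 lower) to 12.9 to 14.8 and 16.1 to 16.3, and markers of rete and other epithelium (4 tested, 2 higher) to 0.583 to 0.634 and 0.756 to 0.815. Most of the germ cell sum came from Ldhc, which did not pass under PD0325901 (0.25, limma adjusted p = 0.187), while Prm1 and Tnp1 fell. With bFGF macrophage markers summed to 9.47 to 10.1, with 1 lower (Lyz2) and 6 that did not pass, and germ cell markers to 19.5 to 24.0, with 3 higher and 3 that did not pass. The part of these shifts in the values of the ErbB pathway genes was not tested.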

How the data were processed

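Transcripts were measured on 6 Agilent 1-colour arrays, with groups and replicate numbers taken from the labels. Per the file headers, Agilent Feature Extraction 9.5.3.1 wrote each spot's intensity after subtracting background and detrending; the submitters' processing notes name version 9.5. The log2 values that the authors deposited as a table equalled, after scaling of arrays and centring of probes, the log2 of that signal within 0.01 for 100% of values; the constant common to all arrays stays unknown, column medians lay between -0.107 and 0.0195, and the table served as an alternative.

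Here the log2 intensity minus each array's 75th percentile over non-control spots was used. Outlier-flagged spots and controls were dropped (83 of 41174 probes), no spot was saturated, and spots of 1 probe were averaged. RefSeq accessions named 56.8% of probes through a table of assembly GRCm38.p6; the build of the array design is not given in the sources used here, so no probe coordinates are printed. Detection needed a signal well above background on each array of some group, and the brightest detected probe stood for its gene. limma 3.58.1 in R 4.3.3 (lmFit, eBayes) fitted all 6 arrays with 3 residual degrees of freedom and Benjamini-Hochberg adjustment over 14236 genes at 0.05; the median SE was 0.066, and the number of arrays limits the precision. The fit was also run on simulated data with independent normal noise and no slide effect or detection floor. That run says nothing about those limits. The 2 arrays of a group had no identical values and differed by more than spot noise.

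The genes and lists were chosen with earlier results of these data known. Named were all members, the check genes of MEK inhibition, the called genes with the 2 largest differences in each direction per pathway list, for PD0325901 and for bFGF against vehicle, and the 2 genes nearest to each member. Outside this rule, Nrg4, Adam17, Grb2, Sos1, Cbl and Lrig1 were named for their roles after their values were seen, as were the chromosome 5 neighbours. The scanner files used here carried the median, not the mean, signal, so normexp (offset 50) was run on it.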

Additional observations from a re-analysis of the deposited data

How the results depend on the processing

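With 2 arrays per group, calls close to the threshold depend on each array, and the lowest signals of each slide limit what can be said of Areg, Ereg, Erbb3 and Epgn. Between PD0325901 and vehicle, Areg, Ereg, Btc, Egfr, Errfi1 and Hbegf kept their direction and passed under every alternative in which they were tested; Areg and Ereg were not tested with probes above background on all 6 arrays. The size of the Areg and Ereg falls depended on the background: with normexp, whose offset raises dim signals, they were -1.0 and -1.12. Members called ranged from 7 to 9 on leaving out 1 array, and from 7 to 9 between bFGF and PD0325901. Genes called ranged from 5084 to 7198 and from 6305 to 9228, and genes of the pathway lists from 26 to 32 and from 31 to 38. With all detected probes tested together, which tests more features, 13923, 16960 and 4417 probes passed (PD0325901 against vehicle, bFGF against PD0325901 and bFGF against vehicle).

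Between bFGF and vehicle, members called fell from 6 to 3 with probes above background on all 6 arrays (Areg, Ereg and Erbb3 were not tested there), to 2 with only the 4 arrays of the groups compared, to 3 with the replicate block and to between 0 and 3 on leaving out 1 array. Genes called, 2834 in all, were 5476 with scaling to the array's median, 1139 with only the 4 arrays, 1410 with the replicate block and 0 to 1882 on leaving out 1 array. Genes of the pathway lists called, 8 in all, were 5 with quantile normalization, 23 with scaling to the median, 3 with only the 4 arrays, 2 with the replicate block and 0 to 6 on leaving out 1 array. Leaving out 1 array also leaves 2 residual degrees of freedom, and the lone array is assumed to vary like the other groups. Deviations of same-numbered arrays correlated weakly (-0.08, 0.12 and -0.12 for the 3 pairs of groups). With so few arrays this cannot show whether the replicate numbers pair the samples. The replicate block changed no call of a member in the other comparisons.

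Scaling to the median moved the median of all genes by 0.11 for PD0325901 against vehicle, by -0.13 for bFGF against vehicle and by -0.24 for bFGF against PD0325901. The share of calls that were higher went from 45.1% to 59.7%, from 63.4% to 26.1% and from 59% to 34%. Reversed, none of them past the threshold under the alternative, were Btc between bFGF and vehicle with normexp (0.026), Erbb2 there with scaling to the median (-0.11) and without vehicle replicate 1 (on leaving out 1 array it ranged from -0.013 to 0.056), and Erbb3 between bFGF and PD0325901 with the mean of its detected probes (0.085). The cause was not tested. The 2 detected Erbb3 probes had measured differences of opposite sign there, and that of the dimmer probe had an SE of 0.82.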
